A study of Mus musculus with 2 samples.

Results

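The integrin and laminin genes comprised 37 of the 20722 autosomal protein-coding genes of GENCODE vM21. They were chosen by symbol, as 18 integrin alpha genes (Itga), 8 integrin beta genes (Itgb) and 11 laminin genes (Lama, Lamb and Lamc). Of the integrin genes, 7 encode subunits that are known from leukocytes (Itgal, Itgam, Itgax, Itgad, Itgae, Itgb2 and Itgb7), and they are named apart from the other 19.

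Integrins are cell surface receptors made of an alpha and a beta subunit, and they tie the extracellular matrix to the actin cytoskeleton. Laminins are trimers of an alpha, a beta and a gamma chain, and they form the sheet-like network of the basement membrane on which epithelia, muscle and vessels rest. The pluripotent cells of the early embryo sit on such a membrane, and they hold to laminin and fibronectin through integrins that carry the Itgb1 subunit.

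SCoTCH-seq reads cytosine (C), 5-methylcytosine (M) and 5-hydroxymethylcytosine (hmC, H) on both strands of the same DNA fragment, so that each CpG site receives 1 of 9 states. It was applied here to genomic DNA of 2 passages of the E14 line of mouse embryonic stem cells (mESCs), grown on gelatin in medium with serum and leukemia inhibitory factor, with spike-in duplexes of known state in each library. Both libraries belong to 1 condition, and no genotype or treatment was compared. No RNA was measured, so nothing below is a level of expression, and the passages of 1 line give a spread between 2 libraries only. A state is written with the plus strand before the minus strand, so that CC is unmodified, MM is methylated on both strands, MC and CM are hemimethylated, HC and CH carry hmC opposite C, and HM and MH carry hmC opposite M.

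The level of a state is the percentage of all calls summed over the sites of a region, in each replicate. Replicate 1 held 13366464 autosomal CpG sites at a mean of 10.6 calls per site, and replicate 2 held 4882356 sites at 6.37 calls per site. In the bodies of the integrin and laminin genes, 74.1% of the CpG sites of the genome were covered in replicate 1 and 27.3% in replicate 2. Coverage was thinner within 1 kb of their start sites, at 45.3% and 14.8%, and the CC levels of promoters in replicate 2 rest on few sites. The promoters of all 8 markers of embryonic stem cells were unmodified at 80% of calls or more in both replicates, among them Pou5f1, Sox2 and Zfp42. Of 7 leukocyte markers with enough sites, 4 were at 20% or less in both, among them Lck, Ptprc and Spi1, and Coro1a was at 84.0% and 88.7%.

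To show which CpG sites lay behind a promoter level, sequences of up to 250 bases before the start site are given here for genes with high or low CC. They come from the promoter table of RefSeq (build GRCm38.p6), which matched 23 of the 37 genes, and are written 5′ to 3′ on the strand of the gene, with each CpG that was covered in either replicate in capitals. The rule for printing asked for 3 covered sites in each replicate, and only Itga1 and Itga8 met it. The other 4 had at least 3 covered sites in replicate 1 and were chosen after their values were seen.
Itga1: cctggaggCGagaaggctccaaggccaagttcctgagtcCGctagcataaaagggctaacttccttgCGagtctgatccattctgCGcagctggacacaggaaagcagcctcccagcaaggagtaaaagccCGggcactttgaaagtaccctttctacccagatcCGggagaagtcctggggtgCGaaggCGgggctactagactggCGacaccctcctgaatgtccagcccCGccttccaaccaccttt
Itga8: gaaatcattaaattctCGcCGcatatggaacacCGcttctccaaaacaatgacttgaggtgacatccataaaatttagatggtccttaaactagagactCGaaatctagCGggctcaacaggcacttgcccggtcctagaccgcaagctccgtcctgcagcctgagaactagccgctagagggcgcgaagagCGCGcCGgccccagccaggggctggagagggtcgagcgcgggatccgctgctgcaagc
Lama5: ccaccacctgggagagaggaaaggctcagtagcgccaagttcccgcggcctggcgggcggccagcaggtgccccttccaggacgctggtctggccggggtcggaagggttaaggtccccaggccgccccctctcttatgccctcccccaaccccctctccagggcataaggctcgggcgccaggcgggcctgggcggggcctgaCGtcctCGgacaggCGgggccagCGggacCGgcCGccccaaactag
Itgb6: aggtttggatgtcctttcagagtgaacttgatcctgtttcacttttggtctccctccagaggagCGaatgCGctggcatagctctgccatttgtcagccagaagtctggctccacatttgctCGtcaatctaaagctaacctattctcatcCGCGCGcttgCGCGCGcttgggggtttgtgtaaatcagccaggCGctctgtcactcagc
Itgam: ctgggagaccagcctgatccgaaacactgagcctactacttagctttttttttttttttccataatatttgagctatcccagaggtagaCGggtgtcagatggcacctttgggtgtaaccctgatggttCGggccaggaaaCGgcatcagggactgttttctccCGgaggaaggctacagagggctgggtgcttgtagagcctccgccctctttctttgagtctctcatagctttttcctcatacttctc
Itgax: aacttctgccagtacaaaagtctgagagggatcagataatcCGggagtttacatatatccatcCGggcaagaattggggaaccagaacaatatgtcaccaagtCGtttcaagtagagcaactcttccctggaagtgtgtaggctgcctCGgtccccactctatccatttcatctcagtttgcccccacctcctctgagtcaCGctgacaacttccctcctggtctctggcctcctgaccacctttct

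Itga1, a collagen receptor subunit, was unmodified throughout the sequence (chr13:115101965-115102214, minus strand), with CC at 100% of 52 calls in replicate 1 and 98.2% of 56 calls in replicate 2. Itga8 (chr2:12301945-12302194, minus strand), a kidney receptor subunit for RGD ligands, was at 85.7% of 70 calls and 94.1% of 34 calls. Lama5 (chr2:180225860-180226109, minus strand), which encodes the most widespread laminin alpha chain, was at 100% of 31 calls in replicate 1 and was not covered in replicate 2. The stretches with little CC were also those of Itgb6, Itgam and Itgax. Itgb6 (chr2:60722644-60722853, minus strand), an epithelial subunit, had all of its 10 CpG sites covered in replicate 1, with CC at 13.0% and MM at 61.0% of 100 calls. Itgam (chr7:128062390-128062639, plus strand), of neutrophils and macrophages, had CC at 12.5% and MM at 53.1% of 32 calls in replicate 1. Itgax (chr7:128129300-128129546, plus strand), of dendritic cells, had CC at 11.7% and MM at 61.7% of 60 calls in replicate 1, and in replicate 2 all 5 calls at its 1 covered site were MM. Itgb6 held 10 CpG in 210 bases, a count that Itga1 reached in 250 bases, and their CC levels lay at opposite ends.

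Over the whole promoter, taken as 1 kb either side of the start site, 30 of the 37 genes had at least 5 covered sites in each replicate. CC reached 80% or more in both replicates in 13 of these 30, and this held for 54.5% of 14929 genes. The count depended on the promoter, and was 5 of 35 with 2 kb either side and also with every annotated coding start. The share of all genes is not given for these settings, so they do not compare with the 54.5%. Over all genes, CC in replicate 1 also fell with distance, from 86.0% in the first 500 bp downstream to 42.5% at 1.5 to 2 kb. CC was 20% or less in both in 2 of the 30, Itgam and Itgax, against 9.99% of all genes. The median CC level of the 30 was 81.9% in replicate 1 and 73.4% in replicate 2, and that of all genes was 87.7% and 85.4%. In 25 of the 30 the level was lower in replicate 2 than in replicate 1, so promoter levels carry the difference between the libraries as well as that between genes.

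**Figure D1:**
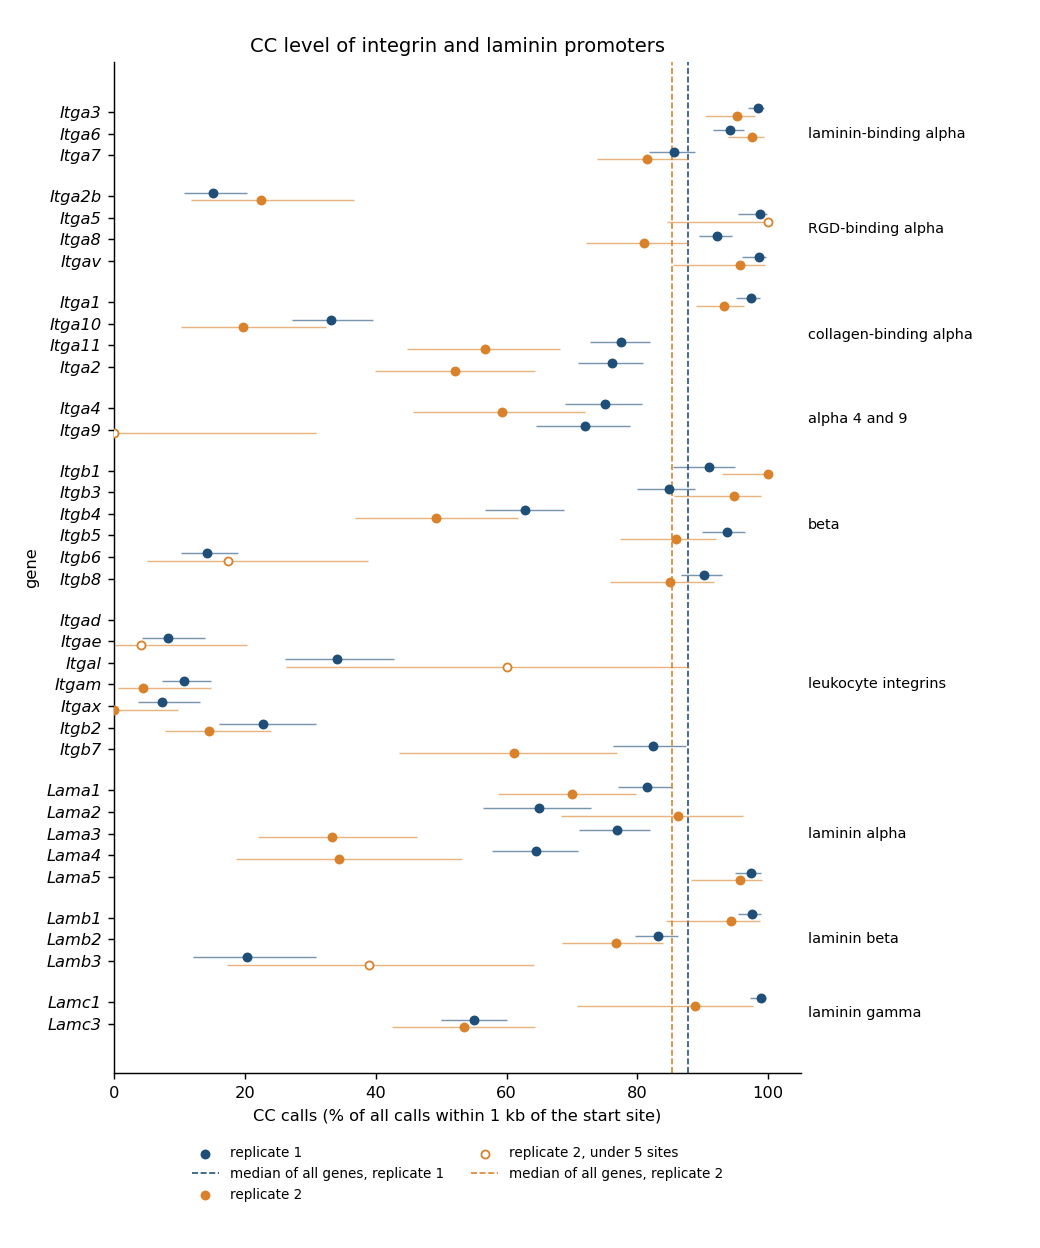
CC level within 1 kb of the start site, in percent of all calls, for 36 of the 37 integrin and laminin genes in replicate 1 (blue) and replicate 2 (orange), grouped by role. Bars are exact 95% intervals of counting error, open circles mark under 5 covered sites, dashed lines are the medians of all genes, and Itgad had no covered site; the promoters of Itgam, Itgax and Itgae sit near the left edge and those of Itga3, Itga6, Itgav, Lama5 and Lamb1 near the right.

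The laminin-binding alpha subunits all had unmodified promoters. Itga3 was at 98.5% CC in replicate 1 and 95.2% in replicate 2, Itga6 at 94.2% and 97.6%, and the muscle subunit Itga7 at 85.5% and 81.5%. Among the subunits that bind the RGD motif of fibronectin and vitronectin, Itgav was at 98.6% and 95.7%. Itga5, the fibronectin receptor subunit, was at 98.7% of 152 calls and 100% of 22 calls, although only 4 sites were covered in replicate 2. The platelet subunit Itga2b stood apart from them at 15% and 22.4%.

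Over 1 kb either side, the collagen-binding subunits spanned nearly the whole range. Itga1 was at 97.3% and 93.2%, whereas Itga2 was at 76.2% and 52.2%, the fibroblast subunit Itga11 at 77.5% and 56.8%, and the cartilage subunit Itga10 at 33.2% and 19.6%. In the 300 bases around the RefSeq start CC was higher. Replicate 1 had 96.1% of 102 calls in Itga2, 94.1% of 51 in Itga11 and 83.8% of 37 in Itga10. In replicate 2 Itga11 had 68.8% of 16 calls, Itga10 had 80% of 10, and Itga2 was not covered. Itga4, which serves the traffic of leukocytes and early development, was at 75.1% and 59.3%. Its relative Itga9 was at 72.0% in replicate 1 and had 2 covered sites in replicate 2.

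Of the beta subunits, Itgb1, the shared partner of most matrix-binding alpha subunits, was at 91% and 100%. Itgb5 was at 93.7% and 85.9%, Itgb3 at 84.8% and 94.8%, and Itgb8, which activates latent TGF-beta with Itgav, at 90.1% and 85.1%. Itgb4, the hemidesmosome partner of Itga6, was lower at 62.9% and 49.3%. Itgb6 was at 14.1% of 262 calls in replicate 1 and 17.4% of 23 calls in replicate 2, where 3 sites were covered.

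CC was low in the promoters of 4 leukocyte integrins. Itgam was at 10.7% and 4.35% CC, Itgax at 7.35% and 0%, and Itgb2, the beta subunit shared by both, at 22.8% and 14.5%. Itgae, of lymphocytes within epithelia, was at 8.16% and 4.0%, with 4 sites in replicate 2. Itgal was higher, at 34.1% of 135 calls in replicate 1 and 60% of 10 calls at 2 sites in replicate 2, and none of the 24 CpG of the Itgad promoter was covered. Itgb7, the gut-homing beta subunit that pairs with Itgae and Itga4, was at 82.4% and 61.1%.

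Between the groups, the median promoter CC of the 4 leukocyte integrins with enough sites was 16.7% in replicate 1 and 9.40% in replicate 2. That of the 16 other integrins was 87.8% and 83.3%, so the medians differed by -72.5 ± 1.97 percentage points (SD, n = 2). The difference was -48.9 points with promoters of 2 kb either side and -43.2 points when every annotated coding start was used.

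Around the start site, CC in the leukocyte integrins was 34.2% in the first 500 bp downstream in replicate 1 and 16.1% in replicate 2. In the other integrins the same bin was at 87.5% and 86.1%, and in the laminins at 85.1% and 92.1%. HC/CH in this bin was 1.63% and 1.66% in the other integrins, and 5.35% and 4.6% in the leukocyte integrins.

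**Figure D2:**
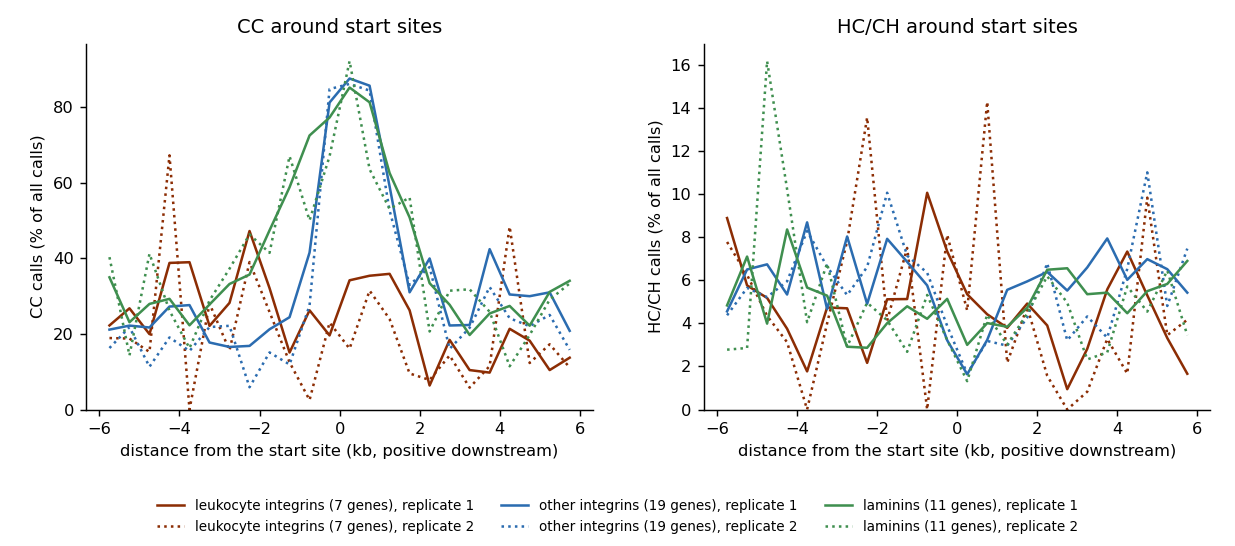
CC (left) and HC/CH (right) in percent of all calls, in bins of 500 bp by distance from the start site, for 7 leukocyte integrins, 19 other integrins and 11 laminins, with replicate 1 as solid and replicate 2 as dotted lines. CC peaks above 80% just downstream of the start in the other integrins and the laminins and has no such peak in the leukocyte integrins, whose bins hold 6 to 31 sites within 1 kb of the start.

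Among the laminins, the promoters of 3 chains were unmodified in both replicates. They were Lama5 at 97.4% and 95.8%, Lamb1 at 97.6% and 94.3%, and Lamc1 at 98.9% and 88.9%, where Lamb1 and Lamc1 encode the beta and gamma chains of the laminins of the early embryo. Lama1, their alpha chain in the embryonic basement membrane, was at 81.5% and 70.0%. Lamb2, a chain of kidney and neuromuscular basement membranes, was at 83.1% and 76.8%.

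In the remaining laminin promoters CC was under 80% in at least 1 replicate. Lama2 of muscle was at 65.0% and 86.2%, Lama4 of vessels at 64.5% and 34.4%, and Lamc3 at 55.0% and 53.5%. Of the chains of the epidermal laminin, Lama3 was at 76.8% and 33.3%, and Lamb3 at 20.3% in replicate 1 with 2 covered sites in replicate 2. The principal transcript of Lamb3 begins 94269 bp from the start that RefSeq lists, so this value describes the distal start. For Lama3 and Lama4 the replicates differed by more than 30 points, with 9 and 6 sites in replicate 2.

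CC at promoters went with the density of CpG. The ratio of observed to expected CpG had a median of 0.606 in the 13 unmodified promoters, with a range of 0.409 to 0.860, and 0.421 in the 15 between the thresholds. It was 0.191 in Itgax and 0.269 in Itgam. Across the 30 genes, Pearson's r between CC and this ratio was 0.736 in replicate 1 and 0.739 in replicate 2, and across 8595 genes it was 0.718 and 0.680. The genes share each library and its depth and are not independent replicates. All 7 leukocyte integrins had ratios between 0.152 and 0.269, while the other integrins ranged from 0.225 to 0.860.

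In gene bodies, counted as exons and introns outside the promoter, all 37 genes had at least 50 covered sites in each replicate, as did 10217 genes in all. Their median MM level was 58.8% in replicate 1 and 62.6% in replicate 2, beside 56.8% and 61.7% for all genes. The median HC/CH level was 4.90% and 4.09%, beside 5.05% and 4.33%. The median HM/MH level was 4.46% and 2.64%, beside 4.31% and 2.76%. As a list, the integrin and laminin genes thus had a median below that of all genes in HC/CH in both replicates. In HM/MH it was above in replicate 1 and below in replicate 2. These gaps were not tested. HC/CH was higher in replicate 1 in 31 of the 37 genes and HM/MH in 35, so values are compared within a replicate.

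HC/CH differed more among the genes than between replicates. The range was 2.14% to 7.74% in replicate 1 and 1.34% to 8.03% in replicate 2, and Pearson's r between the replicates across the 37 genes was 0.882, against 0.798 across 10217 genes. For HM/MH the same r was 0.498, and for HH, with hmC on both strands, it was 0.0423. HH levels of single genes are therefore not described.

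Ranked by the lower of the replicates, the highest HC/CH was found in 3 laminin genes. Lama5 was at 7.74% and 7.09% (mean 7.41% ± 0.46, SD, n = 2), Lamb2 at 7.16% and 7.51% (7.33% ± 0.25) and Lamc1 at 6.98% and 7.58% (7.28% ± 0.42). Lama5 and Lamb2 were in the highest 10% of all genes in both replicates, 2 of 37, as were 5.17% of all genes. Itgb4 followed at 6.44% and 8.03%, and then the laminin-binding subunits Itga3 at 6.86% and 6.41% and Itga6 at 6.16% and 6.76%. The exact 95% intervals of counting error of the 3 laminin genes overlapped in both replicates, so no order among them can be read.

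Ranked by the higher of the replicates, the lowest HC/CH was found in Itgb8, at 2.14% and 1.34% (1.74% ± 0.57), and in Itgax, at 2.45% and 1.77%. Lama2 was at 2.67% and 2.09%, Itga4 at 3.06% and 2.14%, and Itga2 at 3.23% and 2.64%. Of the 37 genes, 4 were in the lowest 10% in both replicates (Itga4, Itgax, Itgb8 and Lama2), as were 6.45% of all genes. In Itgb8 the promoter was unmodified and in Itgax it was methylated, so the lowest bodies were found with either kind of promoter.

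**Figure D3:**
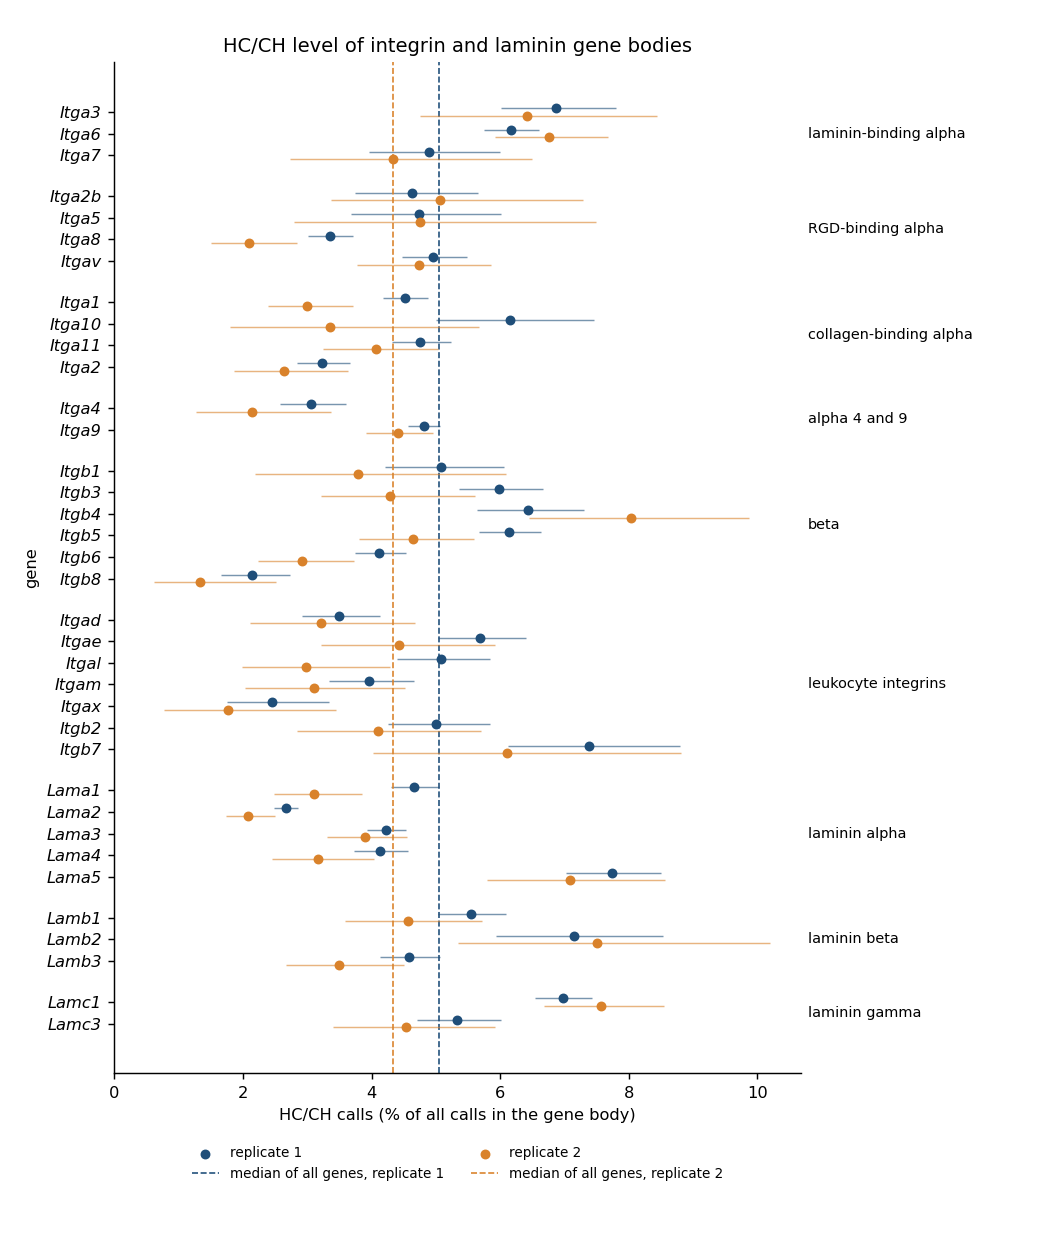
HC/CH level of the gene body in percent of all calls for 36 of the 37 genes in replicate 1 (blue) and replicate 2 (orange), grouped by role, with exact 95% intervals of counting error and the medians of all genes as dashed lines. Lama5, Lamb2 and Lamc1 lie to the right of both medians and Itgb8, Itgax and Lama2 to the left.

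By role, the laminin-binding alpha subunits had a median HC/CH of 6.16% and 6.41%. The laminin alpha chains had a median of 4.22% and 3.17%, with Lama5 among the highest and Lama2 among the lowest genes described. Of the 11 laminins, 6 were above the median of all genes in both replicates, among them Lama5, Lamb2 and Lamc1, and the other 5 were below it in both. Of the integrins known from embryonic stem cells, Itga6 at 6.16% and 6.76% and Itgb5 at 6.14% and 4.64% were above that median in both replicates. Itgb1 at 5.07% and 3.79%, Itga5 at 4.74% and 4.75% and Itgav at 4.96% and 4.74% lay on opposite sides of it in the replicates. Lamb1 was at 5.54% and 4.56%, and Lama1 at 4.67% and 3.11%. The leukocyte integrins had a median of 5.01% and 3.22%, and their difference from the other integrins was -0.44 ± 0.90 points (SD, n = 2) with opposite signs in the replicates. Among them Itgb7 was at 7.38% and 6.10% and Itgax at 2.45% and 1.77%.

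HC/CH went with the unmodified fraction of the body. Pearson's r between body HC/CH and body CC across the 37 genes was 0.557 in replicate 1 and 0.595 in replicate 2, and across 10217 genes 0.321 and 0.362. Both levels are shares of the same calls. Itgb7 and Itga2b show the spread around this relation. Itgb7 had body CC of 49.0% and 46.0% with HC/CH of 7.38% and 6.10%, and Itga2b had CC of 48.3% and 41.1% with HC/CH of 4.64% and 5.07%.

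HM/MH ranged from 3.21% to 5.52% in replicate 1 and from 1.10% to 5.03% in replicate 2. Ranked by the lower of the replicates, the highest levels included those of Itgb4 at 4.38% and 5.03% and Itga5 at 3.72% and 3.91%. Itga5 was below the median of all genes in replicate 1, however, and above it only in replicate 2. As called and ranked by the higher of the replicates, the lowest were those of Itga2b at 3.21% and 2.06%, Itgb8 at 3.43% and 1.48%, and Lama2 at 3.53% and 1.59%. HC/CH exceeded HM/MH in both replicates in 25 of the 37 genes, as in 64.8% of all genes.

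This comparison depends on the rate of false calls. The true state of a spike-in site was taken as the state of most of its calls, and both orientations were averaged. In the spike-in duplexes of replicate 1, MM was read as HM and as MH in 2.26% of calls each, equal through the averaging, against 0.233% each in replicate 2. After correction by these rates, the median HM/MH of the 37 genes was 1.60% in replicate 1 and 2.25% in replicate 2, and HC/CH was 4.42% and 4.06%. HC/CH then exceeded HM/MH in both replicates in 36 of 37, as in 93.4% of all genes, and Itgb8 was the exception with 1.16% for both in replicate 2. Corrected levels of HC/CH were still high in Lama5, at 7.47% and 7.26%, and low in Itgb8, at 1.45% and 1.16%. The order of HM/MH changed with the correction. Itga2b was the lowest as called when ranked by the higher of the replicates. Its corrected mean over both replicates was 1.61%, above that of Itgax at 0.962% and Itga2 at 1.04%. The higher replicate and the mean are different measures, and ranks by the mean as called are not given.

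Within the genes, HC/CH was next compared between the first intron and the other introns, over 25 genes with at least 10 sites in each part and replicate. The first intron was that of the principal transcript. The other introns were all sites of the annotated gene outside its exons, promoter and first intron. HC/CH was higher in the first intron in 5 genes (Lamc1, Itga6, Lama1, Itga9 and Itgb6) and lower in 1 (Lamb3). Of 6567 genes tested, 8.34% were called higher and 5.34% lower. The test was a quasi-binomial F test with sites as units and Benjamini-Hochberg adjustment over all genes.

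Among the called genes, the difference was largest in Lamc1, whose first intron is 69.4 kb long and takes up 61.0% of the gene. HC/CH there was 8.07% in replicate 1 and 9.32% in replicate 2, and in the other introns it was 5.15% and 3.46%. The difference was 3.50 ± 0.53 points (SE, replicates summed, quasi-binomial adjusted p = 1.14e-07). Itga6 had a first intron of 29.3 kb with HC/CH of 7.46% and 9.84%, against 5.39% and 5.22% at its other intronic sites (2.58 ± 0.56 points, quasi-binomial adjusted p = 8.31e-05). Those other sites included DNA upstream of the principal start, inside the annotated gene. Largely unmodified windows there had HC/CH of 1.71% to 7.21% in replicate 1 and 2.13% to 7.46% in replicate 2. Their share in the difference was not tested. Lamc1 and Itga6 encode a laminin chain and a laminin receptor subunit, and theirs were the calls that held in each replicate alone.

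Lama1 had 7.15% and 3.16% in the first intron against 4.09% and 2.88% (2.60 ± 0.64 points, quasi-binomial adjusted p = 0.000242), with most of the difference in replicate 1. Itga9, the receptor subunit with the longest integrin gene, had 7.17% and 6.11% against 4.61% and 4.31% (2.45 ± 0.65 points, quasi-binomial adjusted p = 0.000728). Itgb6 had 5.18% and 3.36% against 3.65% and 2.52% (1.42 ± 0.51 points, quasi-binomial adjusted p = 0.0345). These 3 genes were higher in both replicates, but each lost its call when replicate 1 was left out, and Itgb6 also without replicate 2. Lamc1 and Itga6 were also the 2 genes called with sites at least 200 bp apart and with sites covered in both replicates.

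In Lamb3 the first intron of the principal transcript, 61.6 kb long, had 3.86% and 1.94% against 5.15% and 4.59% (fell by 1.51 points ± 0.50, quasi-binomial adjusted p = 0.0268). Lamb3 as annotated overlaps Hsd11b1 and G0s2, in which 32.6% of its body sites lie. Without sites in other coding genes, 24 genes were tested and Lamb3 was not among the 5 called, nor was it called in either replicate alone. Lama5 had 3.36% and 4.0% in its short first intron against 7.49% and 7.25%, and this did not pass the threshold (-3.91 ± 1.23 points, quasi-binomial adjusted p = 0.0598).

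**Figure D4:**
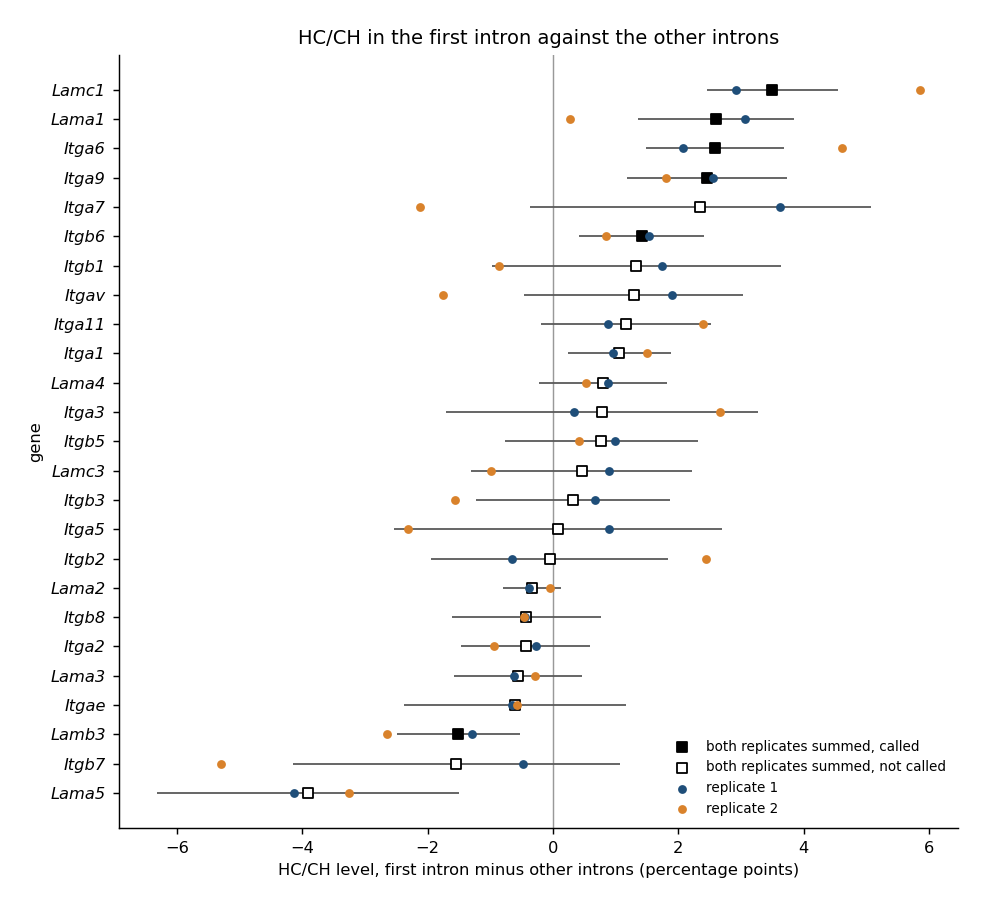
Difference in HC/CH level between the first intron and the other introns in percentage points, for the 25 genes tested, with both replicates summed (squares, with 95% intervals, filled where called) and each replicate alone (blue and orange circles). Lamc1, Lama1, Itga6, Itga9 and Itgb6 are called to the right of 0 and Lamb3 to the left.

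Along the genes, in windows of 2 kb, the high levels of Lamc1 and Itga6 were spread over the first intron. The window of Lamc1 from 8 to 10 kb downstream of the start (chr1:153322787-153324786, intronic) had HC/CH of 14% and 17.2%, and the window from 26 to 28 kb (chr1:153304787-153306786) had 12.3% and 21.7%. In Itga6 the window from 22 to 24 kb (chr2:71808978-71810977, intronic) had 12.5% and 18.6%. With 4 to 15 covered sites per window in replicate 2, the levels of single windows are coarse. None of the 1081 body windows of these genes reached 15% in both replicates, as did 0.0508% of 279492 windows in all.

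**Figure D5:**
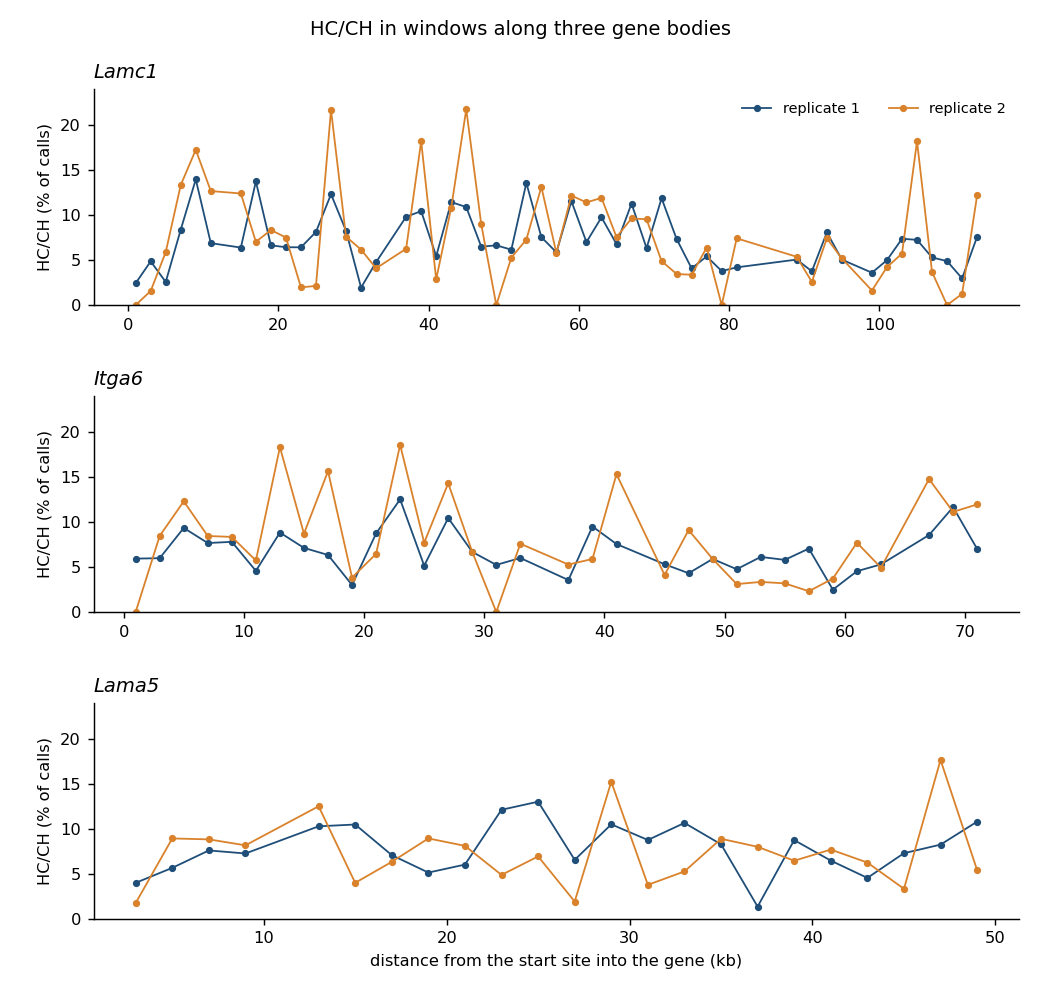
HC/CH in percent of calls in windows of 2 kb by distance from the start site into the gene, for Lamc1, Itga6 and Lama5, in replicate 1 (blue) and replicate 2 (orange). Lamc1 has its highest windows in the first 70.1 kb, which is its first intron, and replicate 2 swings more widely than replicate 1.

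Some windows far from the principal start were largely unmodified. Of the 1081 windows, 32 lay more than 1 kb from any annotated coding start and had CC of 50% or more in both replicates, which is 2.96% beside 3.40% of the windows of all genes. Itga6 had 4 such windows in a row from 42 to 34 kb upstream of its principal start, with CC between 73.9% and 87.2% in replicate 1. They lie at the 5′ end of the annotated gene. The first of them (chr2:71744978-71746977) holds the annotated start of the gene at 71745616, which was not counted as a coding start. Itga6 had another such window at 18 to 20 kb in the first intron, at 88.3% and 80.2%. In Itga2b the window from 2 to 4 kb was at 84.4% and 80.7%, in contrast to its promoter. In Itga1 the windows from 10 to 14 kb, at 90.2% and 73.9% and at 75.5% and 53.3%, hold another annotated coding start within 1 kb, and Pelo and Gm49395 are coding genes annotated within Itga1.

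Against the intergenic DNA within 50 kb, body HC/CH was higher in 1 of 36 genes tested, Lama5. Of 13658 genes, 14.2% were called higher and 6.62% lower. Lama5 had 7.74% and 7.09% in the body against 5.18% and 3.74% in the flank (2.80 ± 0.52 points, quasi-binomial adjusted p = 9.43e-06). Lama5 was called in either replicate alone and with a flank of 20 kb, but not with sites at least 200 bp apart.

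Between exons and introns, none of the 37 was called for HC/CH by the quasi-binomial F test, while 5.2% of 10191 genes were. Of the 37, 4 had an unadjusted p under 0.05, beside 1946 of the 10191 genes. The closest was Lama3, with 5.66% and 5.65% in exons against 4.03% and 3.66% in introns (1.70 ± 0.62 points, quasi-binomial adjusted p = 0.0504). In the same comparison of exons and introns, none of the 37 was called for HM/MH, against 2.93% of all genes. Again 4 of the 37 had an unadjusted p under 0.05, beside 1655 of the 10191 genes. Itgb3 came closest, with 7.70% and 5.26% in exons against 4.84% and 3.23% (quasi-binomial adjusted p = 0.102).

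The strand that carries hmC was compared by an exact binomial test, two-sided, on the calls with hmC on the coding or on the template strand. None of the 37 genes was called, nor was any of 16657 genes (0%). At an unadjusted p under 0.05 there were 6 of the 37 and 1442 of all genes. Itgb1 had 83 such calls on the coding strand and 123 on the template strand in replicate 1, and 12 and 16 in replicate 2 (exact adjusted p = 0.301).

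For hemimethylation the same exact test called 1 of the 37 genes, Lamc3, and 0.684% of 17702 genes. M lay on the coding strand in 348 calls and on the template strand in 262 in replicate 1, and in 96 and 77 calls in replicate 2, which is 6.71 points above 50% (SE 1.77, exact adjusted p = 0.0394). It was not called in either replicate alone, nor with sites at least 200 bp apart, covered in both replicates or holding at least 10 calls. Itgam leaned the other way, with 221 against 284 and 54 against 71 (exact adjusted p = 0.0952).

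The genes that act with integrins and laminins were described by the same rules, over lists fixed with earlier results of these data known. Of 21 adhesion adaptors and kinases, 16 had enough promoter sites, and 11 of them were unmodified in both replicates, among them Ilk, Ptk2, Tln1 and Vcl, beside 54.5% of all genes. Fermt3, the kindlin of blood cells, was the 1 methylated promoter. Of 10 basement membrane partners, 9 had enough sites and 7 were unmodified (Agrn, Bcam, Dag1, Fn1, Hspg2, Nid2 and Npnt).

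Among the adaptors and kinases, HC/CH was called between exons and introns in 1 of 18 genes, beside 5.2% of all genes, and between the first and other introns in 2 of 16, beside 8.34% higher and 5.34% lower of all genes. In Tln2, the talin of muscle and brain, exons had 7.86% and 8.58% against 4.28% and 4.14% in introns (quasi-binomial adjusted p = 1.39e-07), and its first intron was lower than the others (3.75% and 3.0% against 4.47% and 4.51%, quasi-binomial adjusted p = 0.0401). In Ptk2, the focal adhesion kinase, the first intron was higher, with 6.28% and 7.12% against 4.09% and 2.93% (quasi-binomial adjusted p = 0.00471). Of 9 partners, 1 was called for HM/MH, beside 2.93% of all genes. HM/MH was higher in exons in Hspg2, which encodes perlecan, with 6.22% and 5.76% against 4.65% and 3.78% (quasi-binomial adjusted p = 0.0498).

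Against their flanks, 5 of 19 adaptors and kinases were higher in body HC/CH (Tns1, Pxn, Zyx, Parva and Tns3) and Ptk2 was lower, beside 14.2% higher and 6.62% lower of all genes. Paxillin (Pxn) had 8.34% and 7.63% against 4.56% and 5.21% (3.48 points, quasi-binomial adjusted p = 4.74e-09). Of 9 partners tested, 1 was higher, the fibronectin gene Fn1, with 6.84% and 5.70% against 4.91% and 4.79% (1.73 points, quasi-binomial adjusted p = 0.00149). No test set these lists against the integrin and laminin genes.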

How the data were processed

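SCoTCH-seq was read in 2 libraries of E14 mESCs, taken as replicates 1 and 2 of 1 condition. The authors filtered read pairs with Cutadapt, aligned inserts to GRCm38 (mm10) with BSBolt and took out duplicates in Picard before calling 1 of 9 states per CpG and read pair. They deposited, per site with at least 5 calls, the count of each state, the depth and the percent that the count makes of the depth. These values were not corrected by the spike-ins, and blacklisted regions had been removed.

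Counts were summed over the sites of each region and divided by all calls in Python 3.11.15, using SciPy 1.17.1 and pandas 2.3.3 over NumPy 2.4.6, with Matplotlib 3.10.9 for the plots. Genes, exons and start sites came from GENCODE vM21, with the principal transcript of each gene. The promoter was 1 kb either side of the start, and the flank was DNA in no gene within 50 kb. Regions were compared by a quasi-binomial F test with CpG sites as units, calls of both replicates summed and the dispersion never under 1, and strands by an exact binomial test, both two-sided. Sites and calls of 1 library are not independent samples, so the p-values describe differences within these 2 libraries. SEs of differences between regions use the same dispersion, and those of the strand tests are binomial, without dispersion. A gene was called where the Benjamini-Hochberg adjusted p over all genes was under 0.05 and both replicates had the sign of the sum. Exact intervals at 95% and depth cover counting error only, and the mean of 6.37 calls per site in replicate 2 makes single sites coarse. The exon against intron test of HC/CH, the hmC strand test and the correction were checked on simulated data. The check of the correction made and undid errors with the same rates of replicate 1, so it could not test those rates. It also used more calls than any of these gene bodies held. In the strand check both strands were drawn with equal probability, so only false calls were looked at. The simulated sites were independent of each other, so dependence between neighbouring sites was not covered. The first intron, flank and hemimethylation tests were not checked in this way.

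The members and lists were chosen with earlier results of these data known. Levels were named for the 5 highest and 5 lowest genes in HC/CH, the 3 highest and 3 lowest in HM/MH, ranked by the lower replicate for high and the higher for low genes, promoters not unmodified in both replicates, called genes and genes known from embryonic stem cells. Alternatives left out each replicate, asked for 10 calls per site, weighted sites equally, corrected by spike-in rates, used sites covered in both replicates or 200 bp apart, dropped the dispersion, and took other promoters or flanks. Leaving out sites in other coding genes was chosen after seeing the data. Values of some genes are not reported here, although they enter counts and medians.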

Additional observations from a re-analysis of the deposited data

How the results depend on the processing

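No paired analysis was possible because the 2 replicates belong to 1 condition. Over 89 recomputed values, 58 kept their side of the threshold or lay within 1.5 times or 1 SD, and 1 changed sign. Leaving out a replicate gave 0 to 1 genes called for exon against intron HC/CH (Itgb7 without replicate 2), 2 to 4 for the first intron, 1 to 3 for body against flank, 0 for hemimethylation, and 2 to 4 genes in the highest 10% of body HC/CH. Over all genes, these tests in the same order called 38 of 10193, 108 of 6567, 303 of 13658 and 4 of 13462 without replicate 1. Without replicate 2 they called 416 of 15048, 802 of 9209, 2621 of 16621 and 98 of 17311. The difference of leukocyte and other integrins in body HC/CH was -1.08 without replicate 1 and turned to 0.198 without replicate 2, and in promoter CC it ran from -73.9 to -68.8. With 10 calls per site, 9 of the 14 results could not be computed. First introns were called in 0 of 2 genes tested, beside 79 of 347 in all, and 1 promoter had enough sites, unmodified at 95.6% CC. The strand tests at that minimum still covered all 37 genes, with 0 called for hemimethylation, beside 42 of 16326 in all. With sites 200 bp apart, 2 of 18 first introns (Itga6 and Lamc1), 0 of 32 bodies against flanks and 0 of 37 genes for hemimethylation were called. Over all genes these were 140 of 3646, 314 of 7870 and 1 of 15547. With sites covered in both replicates, 2 of 25 first introns and 0 of 37 genes for hemimethylation were called. Over all genes these were 353 of 6330 and 26 of 16219. In that setting 1 gene was in the highest 10%, and the promoter difference was -61.6. Without the dispersion, 2 of 37 genes were called for exon against intron HC/CH (Itga4 and Lama3), 1 of 37 for HM/MH (Itgb3) and 6 of 36 for body against flank. Over all genes these were 1255 of 10191, 735 of 10191 and 4219 of 13658. With spaced sites, exon against intron HC/CH was called in 0 of 1524 genes, and 12 of the 37 could be tested. In the main setting it was called in 530 of 10191 genes. Corrected by the spike-ins, the median HM/MH was 1.93% and the median MM 63.9%. With promoters of 2 kb either side the median CC was 59.5%, 5 of 35 promoters were unmodified and the difference was -48.9. With every coding start these were 55.3%, 5 of 35 and -43.2. The share of all genes with unmodified promoters is not given for either setting. Without sites in other coding genes, chosen after seeing the data, Lama3 was called for exon against intron HC/CH. It was 1 of 36 genes tested, beside 501 of 9543 in all. With a flank of 20 kb, Lama5 was higher and Lamc3 was lower, 2 of 33 genes tested, beside 1813 of 12142 in all. The causes were not tested. Depth limits promoter levels, with 375 covered promoter sites in replicate 2 against 1148 in replicate 1.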
